A study of Mus musculus with 4 samples.

Results

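Levels of 9 transcription factor genes grouped as basal lineage factors (Trp63, Id4, Sox9, Sox10, Snai2, Osr1, Irx3, Id1 and Id3) were measured in single mammary cells. They are 9 of the 31053 genes in the deposited tables, matched by symbol. All mice were FVB, homozygous for a floxed Tfap2c allele (Tfap2cfl/fl) and carriers of Krt5-CreERT2, so the controls carried the floxed allele and the Cre transgene too. A pair of mice was given corn oil, the vehicle, and another pair 4OHT (4-hydroxytamoxifen, which activates CreERT2), by daily injection from week 4, and the fourth mammary glands were taken at week 9. The labels give 5 days of injection in one field and a longer course in another. Because Cre is driven by the Krt5 promoter, recombination is directed to cells that use that promoter, and each library stands for 1 mouse as far as the labels tell, so every spread below is between libraries.

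Cells with at least 1000 UMIs (unique molecular identifiers, which count captured transcripts) were placed in classes by 2 sums of keratin and actin UMIs. The basal sum was Krt5, Krt14, Krt17 and Acta2, and the luminal sum was Krt8, Krt18 and Krt19. Basal cells had a basal sum of at least 5 and more than 3 times the luminal sum, and luminal cells the reverse. Luminal cells were called hormone-sensing where Ly6d, Fxyd2 and Gpx3 together had at least 3 UMIs and more than Wfdc18, Csn3 and Ltf, and luminal progenitor otherwise. This gave 7028 basal, 5629 luminal progenitor and 1168 hormone-sensing cells among 17832. No member gene was used in the gate. Values of the 4 libraries are always given in the order corn oil 1, corn oil 2, 4OHT 1 and 4OHT 2, as CPM, which is the UMIs of a gene per 1000000 UMIs of the class in that library. CPM from 3′ counts compares one gene between classes or libraries, and no order between genes is read from it.

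The mammary duct has an outer layer of basal, myoepithelial cells, which contract, and an inner layer of luminal cells, which are divided into secretory progenitors and cells that carry hormone receptors. p63, the product of Trp63, is the transcription factor that maintains stratified and basal epithelia, and Slug (Snai2), Sox9 and Sox10 have each been tied to mammary stem and progenitor states. Id proteins have a helix-loop-helix domain but no DNA-binding region, so they pair with E proteins and keep them from DNA, and Id1 and Id3 are classical targets of BMP signalling through SMAD proteins.

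The 4 libraries held 3546 to 5545 cell barcodes and 17351950 to 22017878 UMIs, with 155 of 18067 distinct barcodes in 2 or more libraries. Basal cells numbered 1421 to 2178 per library, luminal progenitors 1132 to 1770 and hormone-sensing cells 151 to 447. Between 16.3% and 26.5% of cells had no class, the 2 highest shares being those of the 4OHT-labelled libraries. The 6 basal markers outside the gate (Oxtr, Myh11, Mylk, Cnn1, Tagln and Cxcl14) summed to 5316 to 6955 CPM in basal cells, 136 to 271 in luminal progenitors and 52.4 to 109 in hormone-sensing cells. Tfap2c, the targeted gene, was at 389, 285, 285 and 325 CPM in basal cells, and its log2 fold change of 4OHT against corn oil was −0.08 with a standard error of 0.25 (edgeR quasi-likelihood test, Benjamini-Hochberg adjusted p = 0.999). No fall of Tfap2c in the libraries labelled 4OHT passed the test, and 3′ counts do not show whether an exon is missing, so every direction of treatment below rests on the labels alone.

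Of the 9 genes, Trp63, Id4, Snai2 and Osr1 were higher in basal cells than in luminal progenitors by fitted folds of 26.5 (Id4) to 34.9 (Trp63). Irx3 and Id3 were higher by smaller factors, Sox10 did not pass the test, and Sox9 and Id1 were lower. In all, 6 of 9 passed as higher in basal cells, against 29.5% of the 11135 genes tested, and 2 of 9 as higher in luminal progenitors, against 26.6% of genes. The label of a basal factor therefore went against the data for Sox9 and Id1 in this comparison. Against hormone-sensing cells, 6 of 9 were again higher in basal cells, where the share of all genes was 32.4%. Sox9 and Id3 were higher in hormone-sensing cells, a direction that 27.3% of genes took, and Id1 did not pass. The median log2 fold change of the 9 genes was 2.33 against luminal progenitors, where that of all genes was 0.04, and 4.39 against hormone-sensing cells, where that of all genes was 0.08.

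**Figure D1:**
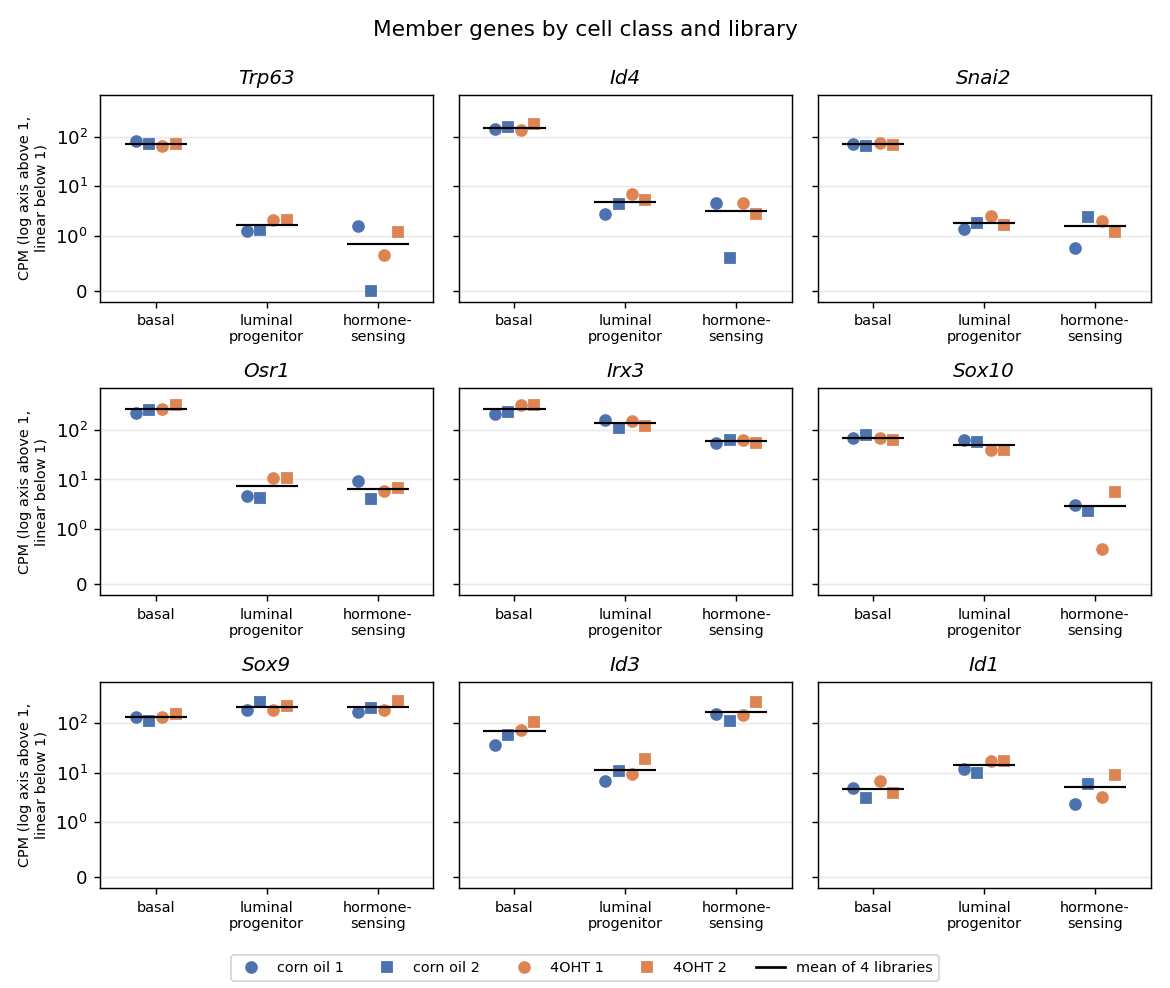
CPM of each member gene (vertical axis, logarithmic above 1 and linear below) in basal, luminal progenitor and hormone-sensing cells; each point is 1 library, coloured by label, and bars are means of the 4 libraries. Trp63, Id4, Snai2 and Osr1 sit high in basal cells only, Sox10 is low only in hormone-sensing cells, Sox9 is lowest in basal cells, and Id3 is lowest in luminal progenitors.

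Trp63 was the gene with the largest difference between classes. Its level in basal cells was 82.5, 69.6, 64.5 and 70.7 CPM (71.8 ± 7.63, SD, n = 4 libraries). In luminal progenitors it was 1.24, 1.32, 2.02 and 2.09 CPM. The lowest basal library was thus far above the highest luminal progenitor library. In hormone-sensing cells the 4 libraries held 2, 0, 1 and 3 Trp63 UMIs, and the count of 0 in corn oil 2 allows up to 1.76 CPM. The log2 fold change of basal against luminal progenitor cells was 5.12 (SE 0.22, edgeR quasi-likelihood test, Benjamini-Hochberg adjusted p = 2.73e-11). The Trp63 gene spans chr16:25683763-25892102 (GRCm38, plus strand).

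Snai2, which encodes the zinc finger repressor Slug, had similar levels in basal cells of all 4 libraries. It stood at 71.9, 64.5, 74.8 and 68.9 CPM there (70.0 ± 4.38, SD, n = 4). Its luminal progenitor level was 1.38, 1.82, 2.5 and 1.61 CPM, and the hormone-sensing libraries held 1, 4, 3 and 3 UMIs. The classes did not overlap, and the log2 fold change of basal against luminal progenitor cells was 4.97 (SE 0.20, edgeR quasi-likelihood test, Benjamini-Hochberg adjusted p = 1.46e-11).

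Osr1 encodes odd-skipped related 1, a zinc finger factor known from kidney and limb mesenchyme. It was at 222, 253, 265 and 323 CPM in basal cells and at 4.68, 4.13, 10.6 and 10.6 CPM in luminal progenitors. In hormone-sensing cells it was at 9.25, 4.12, 5.79 and 6.69 CPM. Basal libraries were all far above those of both luminal classes, with a log2 fold change of 4.91 against luminal progenitors (SE 0.22, edgeR quasi-likelihood test, Benjamini-Hochberg adjusted p = 3.82e-11).

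Id4, the Id family member tied to mammary basal cells, was at 140, 156, 133 and 182 CPM in basal cells. It was at 2.75, 4.30, 7.02 and 5.15 CPM in luminal progenitors and at 4.63, 0.59, 4.51 and 2.76 CPM in hormone-sensing cells. Its log2 fold change of basal against luminal progenitor cells was 4.73 (SE 0.24, edgeR quasi-likelihood test, Benjamini-Hochberg adjusted p = 1.09e-10). The Id4 gene spans chr13:48261228-48266026 (GRCm38, plus strand), and A330033J07Rik and Gm49291 overlap it on the other strand. Whether the counting used strand is not given in the sources used here, so reads of these genes could have been shared, and the same holds for Irx3 and its antisense partner Irx3os.

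The RefSeq promoter table (GRCm38.p6) had entries for Id4, Irx3 and Id3. The 250 bases before the annotated start of Id4, chr13:48260866-48261115 on the plus strand, are shown since Id4 is the one strongly basal member with an entry. Capitals mark CCAAT and GGCGCC, the latter a GC-rich box known as a SMAD binding motif, on either strand.
Id4: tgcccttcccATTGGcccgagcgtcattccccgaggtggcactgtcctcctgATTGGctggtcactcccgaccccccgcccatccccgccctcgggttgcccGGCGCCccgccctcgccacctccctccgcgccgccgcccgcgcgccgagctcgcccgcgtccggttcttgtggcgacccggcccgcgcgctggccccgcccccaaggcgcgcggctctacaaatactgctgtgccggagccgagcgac
The window holds 2 CCAAT matches, both on the minus strand as ATTGG, a motif found in 33.85% of the 32851 promoter windows of this length, and 1 GGCGCC, found in 9.59%. It holds no CANNTG, the E-box to which E proteins bind, where 66.2% of windows hold one, and no CAGGTG, the E-box form bound by Snail-type factors, which 17.2% hold. CAGAC, the SMAD box (42.2% of windows), and TATAAA (12.4%) were also searched on both strands and are not in it. These matches describe letters and not binding.

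The levels of these 4 genes in the luminal classes were small shares of their basal levels. In luminal progenitors they came to 1.5% to 3.14% of the basal level for Trp63, 1.91% to 3.34% for Snai2, 1.63% to 4.00% for Osr1 and 1.97% to 5.26% for Id4. The basal markers outside the gate came to 2.12% to 5.09% of their basal sum in the same cells, and the basal genes of the gate to 1.49% to 2.71%. Id4 in 4OHT 1 (5.26%) was above both ranges, and the other values lay within that of the markers or below it. The top of the marker range came from 4OHT 1, and the markers by library were at 3.05%, 2.12%, 5.09% and 2.37%. Compared within libraries, Id4 (2.75%) and Snai2 (2.82%) in corn oil 2 were above the markers. So were Id4 in 4OHT 1 and Trp63 (2.96%), Id4 (2.84%) and Osr1 (3.29%) in 4OHT 2. The rest, among them all 4 genes in corn oil 1, were below. In hormone-sensing cells Trp63 reached 1.87%, Id4 3.38%, Snai2 3.65% and Osr1 4.17% of the basal level at most, where the basal markers reached 2.06% and the gate genes 1.75%. The part of free RNA or mixed droplets in them was not tested. Between the luminal classes none of the 4 passed the test: the log2 fold changes of luminal progenitor against hormone-sensing cells were 1.24 for Trp63, 0.98 for Id4, 0.52 for Osr1 and 0.49 for Snai2, with edgeR quasi-likelihood adjusted p of 0.0699, 0.0607, 0.194 and 0.367 (Benjamini-Hochberg). Trp63 and Id4 passed there without corn oil replicate 1 (1.65 and 1.36, edgeR adjusted p = 0.047 and 0.0281), and Osr1 passed without the cells most like doublets (0.77, adjusted p = 0.0458). That comparison called 3 of the 9 members (Sox10, Irx3 and Id1) as higher in luminal progenitors, against 24.6% of all genes, and 1 (Id3) as higher in hormone-sensing cells, against 21.9%.

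Irx3, an Iroquois homeobox factor, was graded over the 3 classes. It was at 213, 230, 313 and 323 CPM in basal cells, 161, 110, 149 and 121 CPM in luminal progenitors and 54.7, 61.8, 63.1 and 55.5 CPM in hormone-sensing cells. No library of one class reached into the range of the next. Basal cells exceeded luminal progenitors by a log2 of 0.71 (SE 0.16, edgeR quasi-likelihood test, Benjamini-Hochberg adjusted p = 0.0015), and luminal progenitors exceeded hormone-sensing cells by 1.45 (SE 0.18, adjusted p = 6.81e-06).

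Sox10 and Sox9 belong to the same subgroup of HMG-box factors but had different orders of classes. Sox10 was at 67.5, 77.8, 68.2 and 61.3 CPM in basal cells and at 61.9, 57.7, 40.1 and 40.1 CPM in luminal progenitors. These neighbouring levels touched, with a log2 fold change of 0.21 (SE 0.17, 95% interval by the normal approximation −0.13 to 0.55, edgeR quasi-likelihood test, Benjamini-Hochberg adjusted p = 0.320). With the stricter gate, in which one sum had to exceed the other 10 times, the value was 0.46 and passed (adjusted p = 0.0403). Hormone-sensing cells had 3.08, 2.35, 0.64 and 5.51 CPM of Sox10, lower than luminal progenitors by a log2 of 4.18 (SE 0.29, adjusted p = 1.24e-08). In CPM, without TMM scaling, luminal progenitors had 58.8% to 91.8% of the basal level of Sox10 in the same library. Sox10 was thus far lower in hormone-sensing cells than in the other classes. Its smaller difference between basal cells and luminal progenitors did not pass after scaling with the main gate.

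Sox9 was at 135, 112, 135 and 154 CPM in basal cells, below all values in luminal progenitors, which were 185, 273, 184 and 225 CPM. Hormone-sensing cells had 169, 204, 186 and 282 CPM. The log2 fold change of basal against luminal progenitor cells was −0.95 (SE 0.13, edgeR quasi-likelihood test, Benjamini-Hochberg adjusted p = 1.53e-05) and that against hormone-sensing cells −0.65 (SE 0.14, adjusted p = 0.000593). The 2 luminal classes overlapped in Sox9 and did not differ past the threshold (0.30, SE 0.13, adjusted p = 0.0829).

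Id3 had its highest level in hormone-sensing cells and its lowest in luminal progenitors. Hormone-sensing cells had 154, 114, 149 and 265 CPM, basal cells 37.1, 58.9, 73.6 and 109 CPM, and luminal progenitors 6.74, 10.9, 9.52 and 18.7 CPM. Within each library the order was the same, and the hormone-sensing level was 194% to 416% of the basal level. Basal cells exceeded luminal progenitors by a log2 of 2.33 (SE 0.17, edgeR quasi-likelihood test, Benjamini-Hochberg adjusted p = 8.67e-09) and were below hormone-sensing cells by 1.34, a log2 fold change of −1.34 (SE 0.16, adjusted p = 1.9e-06). Id3 was also found in other cells of the preparation, at 192 to 412 CPM in endothelial cells and at 101 to 756 CPM in fibroblasts of the 3 libraries that had any. These values rest on few cells, with 5 to 137 UMIs from 7 to 146 endothelial cells per library. Fibroblasts gave 3 to 122 UMIs from 9 to 78 cells. Fibroblast markers summed to 243, 53.5, 1346 and 238 CPM in hormone-sensing cells, from 1, 4, 6 and 4 of the 6 genes of that list, against 10.8 to 70.4 CPM in basal cells. In the same order of libraries, Id3 in hormone-sensing cells was at 416%, 194%, 203% and 244% of the basal level. Endothelial markers summed to 10.4 to 58.3 CPM in basal cells and 15.5 to 88.6 CPM in hormone-sensing cells, and the part of these cells' RNA in the Id3 level was not tested.

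Id1 was low in all 3 epithelial classes. Basal cells had 4.94, 3.06, 6.74 and 3.95 CPM, luminal progenitors 11.97, 10.1, 17.3 and 17.5 CPM, and hormone-sensing cells 2.31, 5.88, 3.22 and 9.06 CPM. The log2 fold change of basal against luminal progenitor cells was −1.86 (SE 0.25, edgeR quasi-likelihood test, Benjamini-Hochberg adjusted p = 1e-05). Basal and hormone-sensing cells overlapped and did not differ past the threshold (−0.24, SE 0.35, adjusted p = 0.578). Endothelial cells had 93.3 to 171 CPM of Id1 from 3 to 46 UMIs per library, above every epithelial value.

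**Figure D2:**
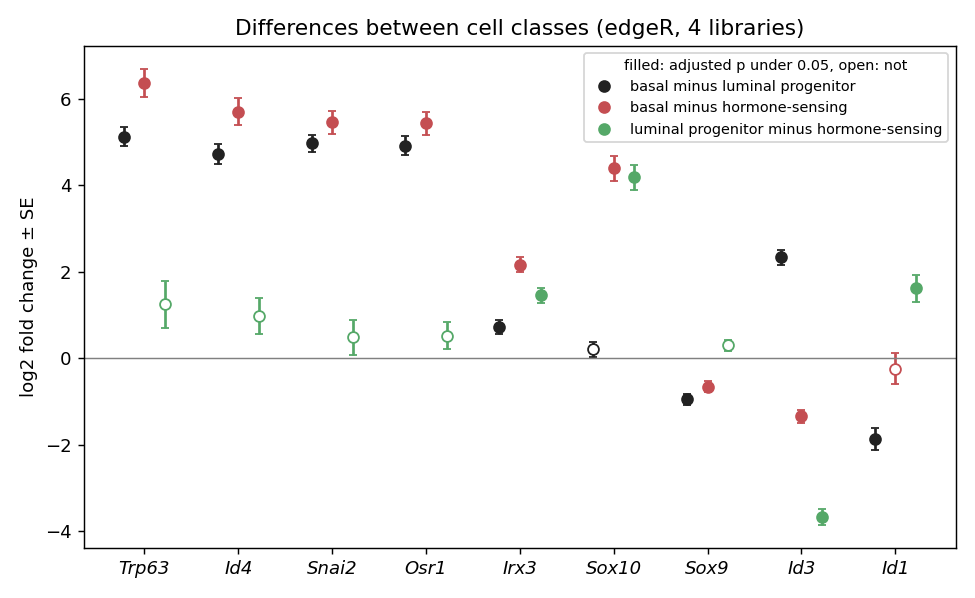
Log2 fold change with its standard error (vertical axis) for each member gene in the 3 comparisons of classes, from edgeR over 4 libraries; filled points passed an adjusted p of 0.05. Trp63, Id4, Snai2 and Osr1 exceed 4.7 in both comparisons of basal cells, and Sox10 is at 0.21 for basal against luminal progenitor cells and above 4 for both against hormone-sensing cells.

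For the share of cells with at least 1 UMI of a gene, cells were first thinned to 2000 UMIs each, and shallower cells were left out. Among basal cells these shares were 31.0% ± 2.91 for Irx3, 26.5% ± 4.58 for Osr1, 20.5% ± 2.40 for Sox9, 20.5% ± 3.76 for Id4, 12.1% ± 1.196 for Trp63, 12.1% ± 0.39 for Snai2, 12.03% ± 1.12 for Sox10, 8.37% ± 2.96 for Id3 and 0.87% ± 0.44 for Id1 (SD, n = 4). No member was therefore found in most basal cells at this depth. Without thinning the basal shares ran from 1.80% for Id1 to 43.8% for Irx3. In luminal progenitors Sox9 was found in 28.9% ± 4.86, Irx3 in 19.5% ± 3.45 and Sox10 in 9.00% ± 2.26 of thinned cells, while Trp63, Id4, Snai2 and Osr1 were found in 0.28% to 1.27%. Endothelial cells, taken as a background at the same depth, gave few cells: 2 of 154 thinned cells held Osr1, 2 held Id4, 5 held Snai2 and 0 held Trp63, which allows a share of up to 1.95%. The luminal progenitor shares were 1.27% for Osr1, 0.75% for Id4, 0.28% for Snai2 and 0.30% for Trp63. So few endothelial cells could not tell shares of this size from 0, so they do not decide whether these shares exceed background. In thinned hormone-sensing cells the mean shares were 0.57% for Osr1, 0.77% for Id4, 0.37% for Snai2 and 0% for Trp63. Cells with no UMI of any member made up 22.8%, 21.8%, 23.3% and 18.9% of thinned basal cells, against 46.4% to 53.4% of luminal progenitors and 45.4% to 58.5% of hormone-sensing cells.

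Within basal cells some members were found in the same cells and others apart. For each pair the odds ratio of finding both in a cell was computed in each library after thinning, as a description of cells that share a library and a depth. Of 36 pairs, 12 were above 1 and 5 below 1 in all 4 libraries. Without Id1, which few cells held, the count was 10 above and 5 below among 28 pairs. Osr1 and Id3 were the pair furthest below 1, with 69 cells holding both where independence would give 151, and odds ratios of 0.27 to 0.42 (median 0.28). Osr1 and Sox10 also occurred together less than independence would give (0.32 to 0.81, median 0.48), as did Id4 with Id3 (0.24 to 0.85), Id4 with Sox10 (0.59 to 0.92) and Trp63 with Osr1 (0.56 to 0.82). On the other side, Osr1 went with Id4 (1.39 to 2.26, median 1.85) and with Snai2 (1.24 to 2.003, median 1.71). Sox10 went with Id3 (1.12 to 2.74) and with Trp63 (1.24 to 1.53), and Id3 with Trp63 (1.19 to 1.56). Osr1 thus went with Id4 and Snai2 and apart from Id3, Sox10 and Trp63. At 3000 UMIs the 5 pairs below 1 and the pairs of Osr1 with Id4 and Snai2 stayed on their side in all libraries, with Osr1 and Id3 at 0.28 to 0.56 (median 0.44), while Sox10 with Id3 (0.79 to 2.35) and Trp63 with Id3 (0.72 to 1.52) did not. Sox9 and Irx3 occurred together in all libraries (1.38 to 1.58).

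**Figure D3:**
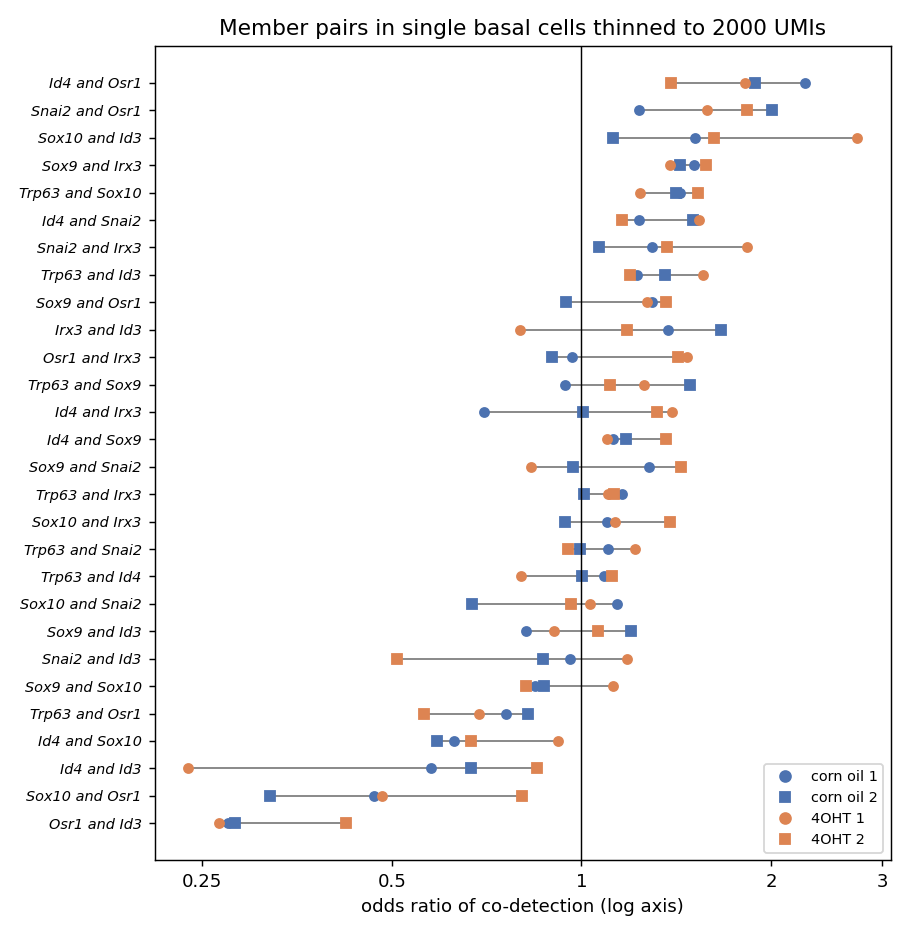
Odds ratio of finding both genes of a pair in one basal cell thinned to 2000 UMIs (horizontal logarithmic axis), with 1 point per library and a line from the lowest to the highest, for the 28 pairs without Id1, which is too rare. Osr1 with Id3 lies between 0.27 and 0.42 and Id4 with Osr1 between 1.39 and 2.26.

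The genes most like each member over the 12 profiles (3 classes in 4 libraries) were found by Pearson's r of log2(CPM + 1) among the 4141 genes that averaged 20 CPM or more. The points share libraries and classes, so r is given with no test. Trp63 was most like Ccnd2 (r = 0.993), Id4 (0.992) and Mylk (0.992), and Id4 was most like Trp63, Cdh3 (0.9902) and Htra1 (0.989). Osr1 was most like Cnn1 (0.996), Myl9 (0.991) and Trp63 (0.9901), where Cnn1 and Myl9 encode proteins of the contractile apparatus. Snai2 was most like the receptor genes Axl (0.994) and Lrp1 (0.993), with Nexn (0.9896) next. Irx3 was most like Nup62 (0.983), its chromosomal neighbour Irx5 (0.981) and Serpinb5 (0.979). Sox10 was most like Trip6 (0.987), Nhsl1 (0.983) and Sec61g (0.975), and Id3 was most like Glrx2 (0.966), Hint1 (0.956) and Nbdy (0.954). Sox9 had no close match, with Psmb7 (0.895), Zfand6 (0.892) and 0610012G03Rik (0.891) at the top. None of the other members that averaged 20 CPM or more was positively correlated with it. Id1 was below the level used.

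Partners and relatives of the members were counted from lists. The Id paralogue Id2 was at 183 ± 37.9 CPM in basal cells and 84.5 ± 8.56 CPM in luminal progenitors, higher by a log2 of 0.84 (SE 0.16, edgeR quasi-likelihood test, Benjamini-Hochberg adjusted p = 0.00029). Of the E protein genes, with which Id proteins pair, Tcf4 was higher in basal cells (1.41) and Tcf12 lower (−0.56), and the fourth gene of that list, Tcf3, did not pass. In the BMP and SMAD list 12 of 16 tested genes were higher in basal cells, 1 lower and 3 did not pass, with a median log2 fold change of 1.33. Over all genes tested in this comparison 29.5% were higher in basal cells and 26.6% lower, with a median of 0.04, and the same values stand beside each list below. Several of the leading genes of that list encode antagonists: Fst (follistatin, 4.82), Nbl1 (2.88) and Bambi, a decoy receptor (2.503), while Smad1 (2.09) encodes a signal transducer. Fst was at 185 ± 30.7 CPM in basal cells and 5.56 ± 2.40 CPM in luminal progenitors.

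All 15 tested genes of the list of p53 family and p63-linked adhesion genes were higher in basal cells, with a median log2 fold change of 2.06 (29.5% of all genes were higher, with a median of 0.04). The P-cadherin gene Cdh3 led it (4.95, SE 0.27), followed by the laminin 332 chain genes Lama3 (3.47) and Lamb3 (2.87) and the integrin gene Itga6 (2.46). Among other Sox factors 3 of 4 tested were higher and 1 lower, and Sox4 was at 1198 ± 341 CPM in basal cells against 353 ± 70.7 CPM in luminal progenitors. Among other Iroquois and odd-skipped factors, Irx5 was higher in basal cells (0.81), and Irx2 (−1.09) and Irx1 (−0.35) were lower. Only 1 of the 6 other Snail, Zeb and Twist genes passed the filter on low counts, and it was not called. Of 5 myoepithelial regulators tested 2 were higher and 2 lower, among them Srf, which was lower in basal cells (−0.95). No luminal transcription factor was higher in basal cells, 9 of 15 were lower and 6 did not pass, led by Elf5 (−6.73), Ehf (−6.00), Foxa1 (−2.58) and the Notch target Hey1 (−1.59). Of the AP-2 genes Tfap2c (2.63) and Tfap2b (1.11) were higher in basal cells. The last list held immediate early genes, which respond to handling of cells, and the heat shock genes Hspa1a and Hspa1b. It was split, with 3 higher (Dusp1 at 1.67 and Egr1 at 1.11 among them), 3 lower (Junb at −0.93 and Hspa1a at −0.62 among them) and 6 that did not pass.

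The treatment was compared within each class, to ask what the 4OHT label changed in these factors. No member passed the threshold in any class in a test that took the libraries as unpaired. In basal cells 0 of 9 members and 0 of all 10788 genes tested passed (0%) by the edgeR quasi-likelihood test, where 465 genes had an unadjusted p under 0.05 and DESeq2 called 38 genes. That count was 17 to 127 when 1 library was left out, with no member among the calls. In luminal progenitors it was 0 of 9 and 0 of 10120 genes (0%, with 166 genes under an unadjusted 0.05 and 1 called by DESeq2). In hormone-sensing cells 4 members passed the filter on low counts and none was called, against 1 of 7589 genes (0.0132%, with 240 under an unadjusted 0.05 and 7 called by DESeq2). Across the lists no gene passed either.

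The CPM of the 4OHT-labelled and corn oil-labelled libraries did not overlap for 3 of 9 members in basal cells, all higher with 4OHT, where 30.7% of all genes tested did not overlap in either direction. In basal cells Id3 was at 37.1 and 58.9 CPM with corn oil and 73.6 and 109 CPM with 4OHT. Its log2 fold change was 0.98 (SE 0.37, edgeR quasi-likelihood test, unadjusted p = 0.0349, Benjamini-Hochberg adjusted p = 0.999), the largest of the 9. Endothelial markers in the same cells summed to 13.3 and 50.3 CPM with corn oil and 10.4 and 58.3 CPM with 4OHT. The list of immediate early and heat shock genes summed to 4060 and 5231 CPM with corn oil and 6254 and 5879 CPM with 4OHT. The part of endothelial RNA or of these responses in the Id3 level was not tested. Irx3 was at 213 and 230 CPM with corn oil and 313 and 323 CPM with 4OHT, a gap wider than the spread within either pair, with a log2 fold change of 0.57 (SE 0.22, unadjusted p = 0.0401 and adjusted p = 0.999 by the same edgeR test). Osr1 was the third, at 222 and 253 against 265 and 323 CPM. Trp63 (−0.11), Snai2 (0.12), Id4 (0.15) and Sox10 (−0.13) had log2 fold changes within their standard errors of 0 in basal cells. Their 95% intervals by the normal approximation reached no further than −0.59 to 0.70. With so few libraries these intervals are narrower than the edgeR test implies. For a single gene an exact permutation test of 2 against 2 libraries could not give a two-sided p under 0.333.

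In luminal progenitors 5 of 9 members had labels that did not overlap, against 24.9% of genes. Osr1 was at 4.68 and 4.13 CPM with corn oil and 10.6 and 10.6 CPM with 4OHT, from 25 to 89 UMIs per library, with a log2 fold change of 1.35 (SE 0.35, edgeR quasi-likelihood test, unadjusted p = 0.00413, adjusted p = 1). The level with 4OHT was 4.00% and 3.29% of the basal level in the same libraries and that with corn oil 2.11% and 1.63%. The basal markers outside the gate came to 5.09% and 2.37% with 4OHT and to 3.05% and 2.12% with corn oil, and their part in the Osr1 level was not tested. Id4, Trp63 and Id1 were also higher in CPM in both 4OHT-labelled libraries than in both others. Id4 rested on 20, 26, 59 and 32 UMIs and Trp63 on 9, 8, 17 and 13. The part of the basal markers in these levels was not tested either. After thinning, the few endothelial cells could not show whether the luminal progenitor shares of Osr1, Id4 and Trp63 exceed background. With only 9 members, the count of 5 is not read as an excess over the 24.9% of genes. Sox10 was lower, at 61.9 and 57.7 CPM with corn oil and 40.1 and 40.1 CPM with 4OHT (log2 fold change −0.48, SE 0.27, edgeR adjusted p = 1). In hormone-sensing cells 0 of the 4 members tested (Id3, Irx3, Sox9 and Osr1) had labels that did not overlap, against 30.5% of genes. The difference of the treatment effect between basal cells and luminal progenitors was tested as an interaction, and 0 of 9 members and 0 of 11434 genes passed (0%, edgeR quasi-likelihood test, with 429 genes under an unadjusted 0.05 and 1 called by DESeq2). The member furthest from 0 was Osr1, with a difference of −1.02 (SE 0.31, unadjusted p = 0.00758, adjusted p = 1).

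**Figure D4:**
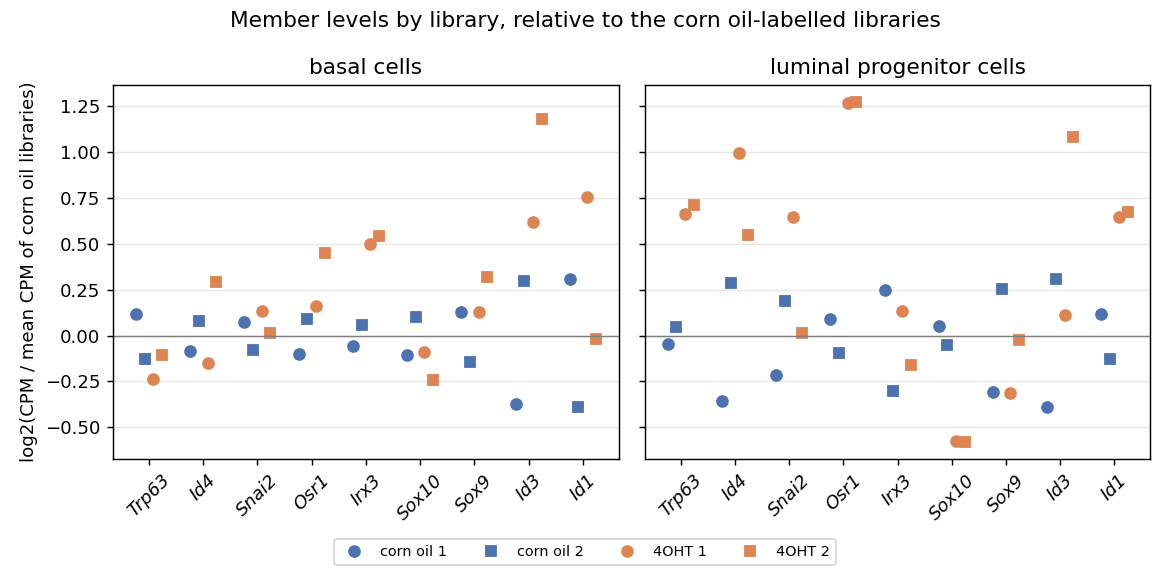
Log2 of the CPM of each library over the mean of the corn oil-labelled libraries (vertical axis) for each member gene in basal cells (left) and luminal progenitors (right), with 1 point per library. In basal cells Id3, Irx3 and Osr1 are higher in both libraries labelled 4OHT, and in luminal progenitors Osr1 is higher and Sox10 lower in both.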

How the data were processed

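Each library was deposited as a matrix of raw UMI counts for genes and cells. The authors produced it from 3′ libraries using Cell Ranger 3.0.1 and the mm10 genome (GRCm38.91), per the labels' design text and the submitters' processing notes. Strand, intron use and cell calling are not given in the sources used here. Cells with at least 1000 UMIs were gated as described, and raw counts were summed per class and library. The test of these sums was that of edgeR 4.0.16 under R 4.3.3 (TMM factors, filterByExpr, quasi-likelihood F-test, Benjamini-Hochberg adjustment over all genes, threshold 0.05), with library as a block between classes. DESeq2 1.42.0 was an alternative. Each library is 1 mouse by the labels, and p-values measure the spread between libraries. The test was also run on simulated counts, drawn independently for each class and library. Deviations shared between libraries were therefore not part of that check. Shares of cells and pairs were computed after thinning to 2000 UMIs, and shares carry counting error only where a single library is given. Doublets were not removed in the main analysis: the automatic threshold of Scrublet (scanpy 1.11.5) marked 0.04% to 0.15% of cells, taken as a failure, and the highest-scoring cells, at 0.8% per 1000 cells, were left out as an alternative. Endothelial cells, fibroblasts and other types are cells of no epithelial class with at least 3 UMIs of that type's marker list from at least 2 genes, the highest of these lists, and under 5 UMIs in either sum of the gate.

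The members, lists and tests were chosen with earlier results of these data known. All members are named, with the 3 most alike genes of each member over 20 CPM, up to 4 called genes per list with the largest difference between basal cells and luminal progenitors and a mean of at least 20 CPM, every list gene called for treatment, and Tfap2c. Gene positions are those of GENCODE M21. Other settings were another scaling, no filter on low counts, gate ratios of 10 and 1, a quality filter, leaving out each library, a replicate block, and leaving out barcodes found in 2 or more libraries. The gate ratio of 1 and the barcode filter were chosen after seeing the data.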

Additional observations from a re-analysis of the deposited data

Results flagged for a closer look

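The cells that met neither sum of the gate, 16.3% to 26.5% of cells per library, entered no test. In them 3 members were higher in both libraries labelled 4OHT than in both labelled corn oil. Osr1 was at 194, 178, 347 and 381 CPM, with means of 186 with corn oil and 364 with 4OHT. Irx3 was at 168, 154, 275 and 385 CPM, with means of 161 and 330. Snai2 was at 40.5, 29.4, 44.0 and 44.0 CPM, with means of 35.0 and 44.0. Sox10 was lower in both, at 80.8 and 53.4 CPM with corn oil and 45.6 and 49.2 CPM with 4OHT. Of the 6590 genes that averaged 10 CPM or more in these cells, 9.83% were higher and 23.5% lower in both libraries labelled 4OHT. These cells had neither sum high enough over the other, some are other cell types, their share differs between the labels, and the differences were not tested. They held 20.7% (Sox9) to 42.9% (Id4) of the UMIs of each member, with Osr1 at 39.7%. With a gate ratio of 1, cells of no class fell from 572, 838, 1239 and 1358 to 150, 484, 319 and 431. Basal cells rose from 1496, 1933, 1421 and 2178 to 1845, 2203, 2109 and 2919. No member had a library that stood apart from the other 3 in a class by Dixon's test.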

How the results depend on the processing

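Between classes, the log2 fold changes of the members kept their direction under the scaling, filter, DESeq2, gate, quality, doublet, barcode and library-block alternatives in all but 2 cases: Snai2 between the luminal classes was −0.0248 with a gate ratio of 10, and Id1 between basal and hormone-sensing cells ranged from −0.63 to 0.17 over left-out libraries, above 0 without 4OHT replicate 2. No call between classes was lost, and 10 were gained, 9 of them between the luminal classes and 1 for Sox10 (0.46 with a gate ratio of 10). Beside the 3 named in the report, the gains between the luminal classes were Trp63 (1.78), Id4 (2.02) and Osr1 (1.62) with a gate ratio of 1, Id4 (1.07) and Sox9 (0.39) without the filter on low counts, and Id4 (1.03) without shared barcodes.

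For treatment, the counts of genes called in basal, luminal progenitor and hormone-sensing cells were 93, 39 and 59 without the filter on low counts and 38, 1 and 7 with DESeq2. For the difference of effects these settings gave 55 and 1. A gate ratio of 10 gave 1 in luminal progenitors, and a gate ratio of 1 gave 0 in hormone-sensing cells. Leaving out 1 library at a time, where the lone library of an arm is assumed to vary like the other, gave 17 (without 4OHT replicate 2) to 127 (without 4OHT replicate 1) calls in basal cells, 31 to 64 in luminal progenitors (the same libraries), 4 (without 4OHT replicate 1) to 80 (without 4OHT replicate 2) in hormone-sensing cells and 0 (without 4OHT replicate 1) to 63 (without corn oil replicate 2) for the difference of effects.

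With a replicate block, pairing libraries of the same number, 167, 9 and 3 genes were called in the 3 classes, and Id3 in basal cells passed (0.98, adjusted p = 0.0104). Deviations of same-numbered libraries correlated at 0.73, 0.47 and 0.23 in the 3 classes. The labels do not say that numbers pair the mice, and with 2 pairs this is a hint from the data.

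Member treatment values that changed sign had an adjusted p of at least 0.965 under the setting that turned them. With a gate ratio of 10, Id4 in basal cells was −0.19, Irx3 was −0.0018 in luminal progenitors and 0.0258 in hormone-sensing cells, and the difference of effects for Snai2 was 0.0659. With a gate ratio of 1, Osr1 in hormone-sensing cells was 1.04 and the difference for Id3 was −0.13. Irx3 in hormone-sensing cells was 0.0091 without shared barcodes. Over left-out libraries, the ranges in basal cells were −0.28 to 0.0463 for Trp63, −0.20 to 0.44 for Id4 and −0.27 to 0.0655 for Sox10. In luminal progenitors they were −0.27 to 0.22 for Sox9 and −0.19 to 0.44 for Irx3. In hormone-sensing cells they were −0.0858 to 0.57 for Sox9, −0.49 to 0.49 for Osr1 and −0.18 to 0.17 for Irx3. For the difference of effects of Sox9 the range was −0.0177 to 0.62. The causes were not tested.

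The median share of basal cells with a UMI over the 9 members was 12.1% at 2000 UMIs, 6.71% at 1000 and 21.1% without thinning, so depth sets these shares. At 3000 UMIs 17 pairs, 10 above 1 and 7 below, lay on one side of 1 in every library, but they were not all the same pairs. Trp63 with Id3, Id4 with Snai2, Sox10 with Id3 and Id1 with Id3 did so only at 2000 UMIs. Trp63 with Sox9, Sox9 with Sox10, Sox10 with Snai2 and Snai2 with Id3 did so only at 3000.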

Other observations

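Basal cells with an Osr1 UMI and no Id3 UMI (316, 423, 336 and 549 cells per library after thinning to 2000 UMIs) were set beside those with Id3 and no Osr1 (85, 102, 97 and 185 cells). The sets were chosen after the pairs had been seen, so the values are a description with no test. Of the 4055 genes that averaged 20 CPM or more, 329 were over 2-fold higher with Osr1 and 121 over 2-fold higher with Id3 in every library. Folds were taken of CPM + 1, and a single UMI weighs more in the smaller Id3 sets. Some of the 329 genes had few UMIs there, such as Unc5b with 0, 0, 0 and 2. The 2 counts of genes are therefore not compared. With Osr1 stood Ero1l, the oxidase of disulphide formation (means of 3574 and 517 CPM), the mitochondrial gene Fam162a (2888 and 427), Espn (439 and 36.1), the oxytocin receptor gene Oxtr (190 and 44.2) and Irx1 (294 and 65.1). Oxtr is a basal marker outside the gate, and the other markers of that list were divided. Tagln (2875 and 2269) and Myh11 (235 and 146) were higher with Osr1 in 4 of 4 libraries. Cnn1 (676 and 640) and Mylk (332 and 302) were so in 3 of 4. Cxcl14 (1054.5 and 2746) was higher with Id3 in 4 of 4. Tfap2c itself was at 485 CPM with Osr1 and 139 CPM with Id3, higher with Osr1 in 4 of 4 libraries.

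With Id3 stood the chemokine gene Cxcl1 (382 CPM against 37.4 with Osr1), Ptgs2 (97.7 and 6.98), Gadd45g (2903 and 355), Sfn (2728 and 571) and Serpinb5 (712 and 144). Krt14, a gene of the gate, was at 10811 CPM with Id3 and 3435 CPM with Osr1, while Acta2 was at 3233 and 5713 CPM. Of the 12 genes in the list of immediate early and heat shock genes, 11 were higher with Id3 in 4 of 4 libraries and Fos in 3 of 4, some by little. Examples are Nr4a1 (410 and 100.4 CPM) and Junb (1962 and 797). Trp63 (101 and 55.1) and Sox10 (126 and 42.4) were higher with Id3 in 4 of 4 libraries, and Id4 (213 and 75.4) and Snai2 (101 and 59.0) with Osr1. Before thinning, cells with Osr1 were deeper in all 4 libraries (medians of 3206 to 5895.5 UMIs against 2828.5 to 4040), and their median ratio of luminal to basal gate UMIs was 0.09 to 0.16 against 0.04 to 0.07. The part of depth, of handling and of mixed droplets in these differences was not tested.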
